A study of Xenopus laevis with 22 samples.

Results

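The regions described here are E2f4-GFP ChIP-seq peaks that were listed in Xenopus laevis animal caps carrying Multicilin, lay close to a transcript start, and had no overlapping peak in caps without Multicilin. Of the 12778 peaks listed with Multicilin, 6852 (53.6%) shared no base with any of the 15693 peaks listed without it. Of these 6852, no transcript start lay within 1 kb of 5332, and starts of both strands lay within 1 kb of 86. The remaining 1434 peaks are the members, which make up 11.2% of the peaks with Multicilin and 20.9% of those that shared no base. They stood at the starts of 1398 (5.73%) of the transcript targets in the RNA tables, called member targets below, which carried 1300 gene symbols and lay on 605 scaffolds. Another 18 of the member targets had no gene name. Membership used peak position, start position and strand, and no RNA value.

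Animal caps are explants of the embryonic ectoderm that form a ciliated epidermis in culture. The study asked how Multicilin, acting with E2f proteins, controls centriole formation, and measured RNA and E2f4 binding in caps from injected embryos. All 6 RNA groups, of 3 libraries each from 20 caps, had received mRNA for a Multicilin fusion to the human glucocorticoid receptor (labelled MCIDAS-HGR), which 20 µM dexamethasone switched on at mid-stage 11. Caps with MCIDAS-HGR alone (the Multicilin caps) and caps that also had mRNA for dnE2F4 (dominant-negative E2f4, written dnE2f4 here) were collected 3, 6 and 9 h later at 22 °C, at stages 13, 16 and 18. For ChIP-seq, caps received E2F4-GFP mRNA alone or with MCIDAS-HGR, about 300 caps per condition, and were taken at 6 h, at stage 16, for precipitation with an antibody to GFP. The submitters pooled 2 ChIP replicates into 1 peak set per condition, so no difference between the peak sets has a replicate check. The labels name an inducible construct in the ChIP caps with Multicilin only, so dexamethasone treatment is not established for those without it. No caps without Multicilin are among the RNA groups, and the E2f4 bound was an injected fusion protein, not the embryo's own.

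E2f4 is a DNA-binding transcription factor that works with a Dp partner and is held in repressive complexes by pocket proteins in cells that leave the cell cycle. Multicilin is a coiled-coil protein without a DNA-binding domain that joins E2f4 or E2f5 with Dp1 in differentiating multiciliated cells, which make many centrioles after they have stopped dividing. Genes for centriole assembly and for the motile axoneme are switched on in these cells over the period sampled.

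RNA libraries held 9159519 to 38099850 estimated fragments. The 14 libraries tested exclude 2 that were scored against another set of targets (dnE2f4 replicate 1 at 3 h and replicate 3 at 9 h) and both libraries labelled replicate 2 at 9 h. Injected dnE2f4 was visible in the e2f4 target, which read 20.9 to 35.3 CPM (counts scaled to a common library total) in Multicilin caps at 6 h and 3520 to 6630 CPM with dnE2f4. At 9 h the library labelled Multicilin replicate 2 read 1430 CPM and the library labelled dnE2f4 replicate 2 read 14.2 CPM, opposite to their labels. Markers of other germ layers were close to 0 at 6 h, with 2.0 to 6.2 TPM (transcripts scaled to length and to a common total) summed over 16 mesoderm targets and 1.86 to 4.94 TPM over 10 endoderm targets in Multicilin caps. In bulk caps, fewer cells of a type and less RNA per cell cannot be told apart.

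The members lay around the start, on its downstream side more often than upstream, and farther from it than the peaks of either comparison set. The start lay inside 424 (29.6%) of the member peaks, against 1403 (46.8%) of the 2996 shared peaks chosen by the same rule of starts and 1307 (42.0%) of the 3114 peaks listed only without Multicilin. Where the peak did not reach the start, it lay downstream, in the transcribed direction, at 667 members (46.5%) and upstream at 343 (23.9%). The median distance from the start to the nearest base of the peak was 96.5 bases for members, 11 bases for shared peaks and 27 bases for peaks only without Multicilin. Peaks more than 500 bases away made up 14.9% of the members and 6.01% of the shared peaks. These are descriptions of 1 peak set per condition. All peaks are intervals of nearly fixed size, with a peak size of 210 bases with Multicilin and 197 bases without, per the file headers.

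**Figure D1:**
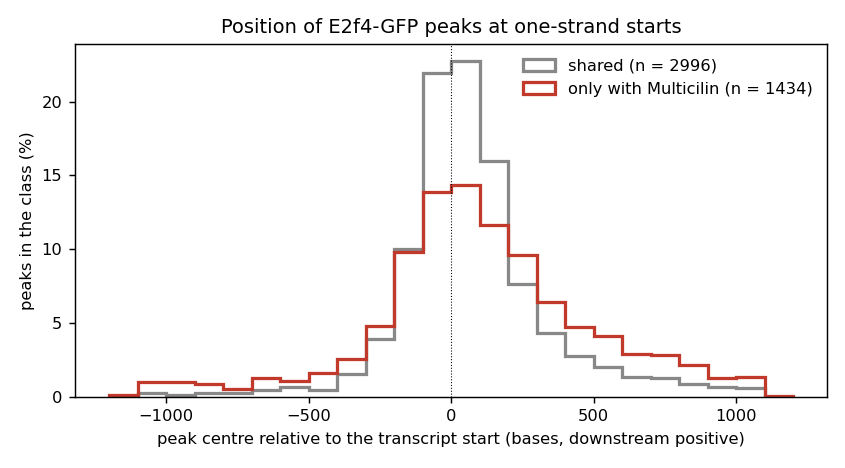
Distance in bases from the transcript start to the peak centre (downstream positive, bins of 100 bases), as a percentage of the 1434 peaks only with Multicilin and of the 2996 shared peaks. The shared peaks stand higher near the start, while the members spread wider, with a median centre 82 bases downstream against 43.5 bases for the shared peaks.

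Many members had a peak of the other set close by without touching it. A peak listed without Multicilin began or ended within 10 bases of 20 members, within 100 bases of 174 (12.1%) and within 500 bases of 377 (26.3%). By contrast, 780 members (54.4%) were more than 10000 bases from any such peak, and 21 lay on scaffolds with none. The median gap was 16172 bases. The 377 close members held the start in 19.1% of cases and lay at a median of 174 bases from it, whereas the 780 distant ones held it in 36.4% and lay at a median of 51 bases. At the opposite edge of the rule, 25 of the shared peaks had at most 10 bases in common with a peak without Multicilin. At the 1 kb limit, the 3 members farthest from a start were at prrx1 (1000 bases), hook3 (999 bases) and engase (996 bases). The 3 nearest peaks left out were at cpt1a (1002 bases), ogdh (1004 bases) and harbi1 (1005 bases).

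Depth and thresholds differed between the peak sets. Per the file headers, 24997566 tags were used without Multicilin and 15313243 with it, and a peak needed at least 13 tags and 11 tags, which is 5.2 and 7.18 tags when scaled to 10000000 tags. The filter against input removed 55.9% of the candidate peaks without Multicilin and 47.6% of those with it. Tag counts per peak were not used here, since the score column holds 1 value throughout, so the strength of a member peak is not known, nor the signal at the same place without Multicilin. Peaks stand in the list in an order that its header does not explain, and members were at a median position of 6914.5 of 12778 against 3601.5 for the shared peaks. The first 25% of the list held 17.4% of the members and 46.2% of the shared peaks. The part that depth, threshold and input had in making a peak appear in 1 set only was not tested.

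Most member targets had no E2f4 peak other than member peaks at their start. A shared peak also lay within 1 kb of 83 (5.94%) of the 1398 starts, and a peak only without Multicilin within 1 kb of 334 (23.9%). At 984 (70.4%) there was no E2f4 peak other than member peaks. At 35 member targets there were 2 or more member peaks, with at most 3. X. laevis is an allotetraploid with many genes in duplicated copies, and 1092 member targets had another target of the same symbol. That other copy was a member too for 159 (14.6%), against 7.92% of the 18343 targets that had a second target of their symbol. It had a shared peak for 255 (23.4%), against 17.7%, and no peak within 1 kb for 474 (43.4%), against 61.3%.

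Few genes for centriole assembly had a member peak, and members among cell-division genes were near the share of all targets, while shared peaks were common in both. Of 88 targets for centriole assembly and the deuterosome, the structure that seeds centrioles in multiciliated cells, 2 (2.27%) had a member peak and 37 (42.0%) a shared peak. The 2 were poc5, a centriolar protein gene, and cep78, a centrosomal protein gene. Across all targets, 5.73% had a member peak and 12.1% a shared peak. Among 108 targets for G1/S and DNA replication, 7 (6.48%) had a member peak and 56 (51.9%) a shared peak, and among 145 for G2/M and mitosis the counts were 7 (4.83%) and 58 (40.0%). Of 48 targets for multiciliated-cell regulators, rbl2, a pocket-protein gene, was the single member, and 22 (45.8%) had a shared peak.

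Several cell-division members stood beside other E2f4 peaks. All 7 members of the G1/S list, cdc25a, cdk2, dut, slbp, dnmt1, orc6 and gmnn, had a peak without Multicilin 51 to 382 bases away. The same held within 500 bases for 3 of the 7 G2/M members and for 369 (26.4%) of all member targets. A shared peak also stood within 1 kb of the starts of slbp, dnmt1, orc6 and gmnn, and of aurkb and lmnb1 of the G2/M list. At those starts E2f4 peaks were listed in both conditions. The peak at poc5 lay 1 base and the peak at rbl2 2 bases from a peak without Multicilin. In such cases the label "only with Multicilin" rests on the ends of neighbouring intervals. The closest peak without Multicilin to cep78 was 21190 bases away.

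Axoneme genes came next. Of 91 targets for the axoneme and the assembly of its dynein motors, 10 (11.0%) had a member peak and 16 (17.6%) a shared peak. The 10 were tubb4b (a β-tubulin of axonemes), tekt4 (a tektin filament protein), rsph9 (a radial spoke head protein), wdr16 (a ciliary WD-repeat protein) and 6 genes whose products are needed to assemble dynein arms in the cytoplasm, dnaaf1, dnaaf2, dnaaf3, zmynd10, dyx1c1 and spag1. A peak without Multicilin lay within 500 bases of 2 of the 10, tubb4b (63 bases) and dnaaf2 (23 bases), and more than 1 kb away from the other 8. Of 79 targets for intraflagellar transport (IFT), the BBSome and the ciliary transition zone, 5 (6.33%) were members, among them ift57, ift172, traf3ip1 and tulp3, and 12 (15.2%) had a shared peak.

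The remaining lists held 0 to 6 members each. Of 60 Notch pathway targets 6 (10.0%) were members, namely the ligands dll1 and jag2, the transcription factor rbpj, and the target genes hes1, hes7 and hey1. Of 44 goblet-cell and outer-layer targets 5 (11.4%) were members, against 1 (2.27%) with a shared peak. They were krt8, a keratin, upk3a, a uroplakin, both listed copies of grhl1, and grhl2, of the grainyhead family of epidermal transcription factors. There were 4 members of 27 neural targets (zic1, zic2, neurog2 and neurod1), 2 of 43 ionocyte targets (the proton-pump subunits atp6v1b2 and atp6v1c1), 2 of 14 neural crest targets (tfap2b and foxd3), 1 of 17 small secretory cell targets (foxa1) and 1 of 8 basal cell targets (col17a1). None of 16 mesoderm and 10 endoderm targets was a member. In all, 53 (6.64%) of the 798 listed targets were members, close to the 5.73% of all targets.

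**Figure D2:**
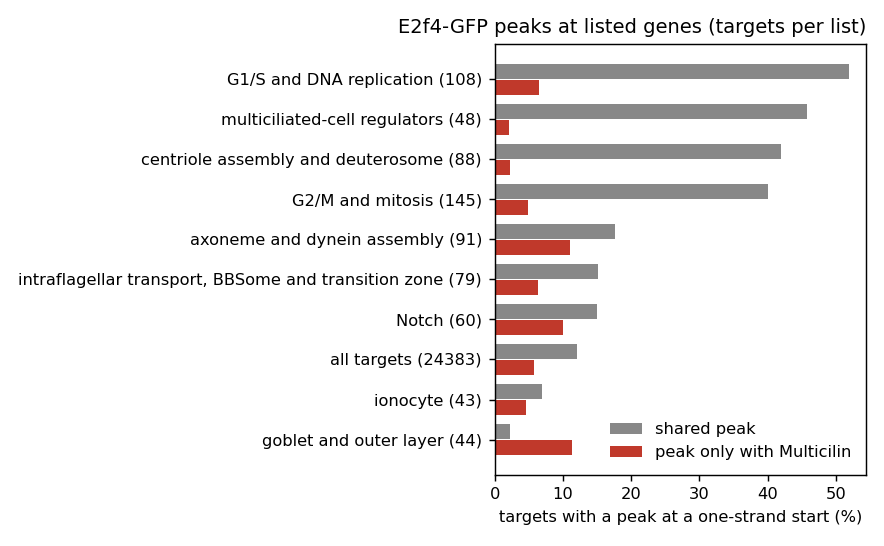
Percentage of the targets in each list with a shared peak (grey) or a peak only with Multicilin (red) at a start of one strand, for the larger lists, with the number of targets in brackets. Shared peaks reached 40.0 to 51.9% of the centriole, cell-division and multiciliated-cell regulator lists, while members made up 2.08 to 11.4% of the lists shown, with 5.73% over all targets.

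Most member targets were expressed in Multicilin caps at 6 h. Their median level was 14.1 TPM, a measure scaled to transcript length, with a middle range from 3.51 to 52.9 TPM. By library the median was 14.1, 15.1 and 12.5 TPM. At least 1 TPM was reached by 1249 (89.3%), against 55.0% of the 16597 targets with no peak within 1 kb, whose median was 1.53 TPM. Targets of shared peaks had a median of 16.6 TPM and targets of peaks only without Multicilin 10.6 TPM. The 984 member targets with no E2f4 peak other than member peaks had a median of 13.1 TPM.

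The highest member levels belonged to housekeeping and structural genes. The translation elongation factor gene eef1a1 read 17200, 16900 and 16200 TPM in the Multicilin libraries at 6 h, and cirbp, a cold-inducible RNA-binding protein gene, read 6230, 6980 and 6010 TPM. Next came hspa8 (a constitutive heat-shock chaperone, 3420 to 4040 TPM), ybx1 (a nucleic-acid-binding Y-box protein, 3110 to 3670 TPM), hmgn2 (a nucleosome-binding protein, 2770 to 3550 TPM) and tubb4b (2850 to 3310 TPM). The caveolar coat gene cav1 ranged from 1920 to 2780 TPM and tpt1, the translationally controlled tumour protein gene, from 2070 to 2540 TPM. At the low end, neurod1, a neuronal transcription factor gene, read 0 TPM in the 3 libraries, and hes7 read 0.25 to 0.603 TPM. Of the 35 targets with several member peaks, cirbp, tpt1, ddx39a, alcam, trim29 and hsbp1 had the highest levels. Each of the 6 had 2 member peaks.

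**Figure D3:**
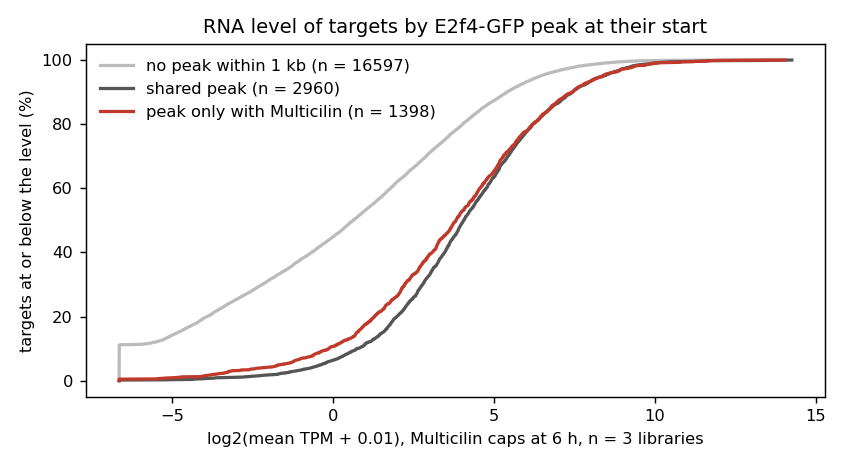
Cumulative percentage of targets by RNA level in Multicilin caps at 6 h, on a log2 axis of mean TPM with 0.01 added. Member targets (median 14.1 TPM) follow targets of shared peaks (median 16.6 TPM) closely, and targets with no peak within 1 kb (median 1.53 TPM) lie to the left.

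Few member targets passed the reported test, which had no replicate block, for dnE2f4 at 6 h, the time of the ChIP. Of the 1398, 1366 (97.7%) passed the filter on low counts, and 63 of these (4.61%) passed edgeR's quasi-likelihood test at an adjusted p under 0.05, 49 lower and 14 higher with dnE2f4. Over all 20043 targets tested 3.44% passed, 2.57% lower and 0.868% higher, against 3.59% and 1.02% of the members. The share of members called was thus near the background. For comparison, 7.17% of the targets of shared peaks passed, 2.99% of those of peaks only without Multicilin and 2.52% of those with no peak within 1 kb. The median log2 fold change was 0.01 over the members tested and 0.03 over all targets. The middle 90% of the members ran from -0.89 to 0.76, and that of all targets from -0.88 to 0.82. Of the 984 member targets with no E2f4 peak other than member peaks, 44 of 956 tested (4.60%) passed. A peak without Multicilin lay within 500 bases of 19 of the 63 called members, and of 369 (26.4%) of all member targets.

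The count depended on the libraries and the model. All 63 had dnE2f4 libraries that did not overlap the Multicilin libraries. The same libraries made the calls, so this is no separate support, and the share of all targets without overlap is not given. Members that were not called, such as poc5 and cep78, also had groups without overlap. Without Multicilin replicate 3, 20 members were called (1.46% against 1.02% of all targets), and without replicate 2, 36 (2.64% against 2.15%). Without dnE2f4 replicate 2, 22 were called (1.61% against 1.2%), and without dnE2f4 replicate 3, 25 (1.83% against 1.42%). In every fit that left out 1 of the 6 libraries at 6 h, 19 of the 63 were called. With replicate number as a block, since libraries of the same number deviated together at 6 h, 305 members passed (188 lower, 117 higher), 22.3% against 15.9% of all targets. DESeq2 called 149 members, 11.3% against 7.87%, and the 6 h groups alone 39, 2.96% against 2.26%, or 416 with the block, 31.6% against 24.0%. Scaled by library size alone, 36 were lower and 24 higher, in place of 49 and 14, with 1.92% and 1.48% of all targets. With the pair opposite to its labels included, edgeR called 0 members (179 at an unadjusted p under 0.05) and 0 of all targets.

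Summed levels of several cell-type lists, members or not, also differed between the groups at 6 h. The 27 neural targets summed to 150 to 154 TPM in Multicilin caps and 79.6 to 87.7 TPM with dnE2f4, with 6 targets at 0 in both groups. Higher with dnE2f4, without overlap, were the sums of the 8 basal cell targets (64.3 to 109 against 135 to 174 TPM), the 17 small secretory cell targets (150 to 164 against 182 to 203 TPM), the 60 Notch targets (421 to 453 against 468 to 582 TPM) and the 48 multiciliated-cell regulators (8540 to 9750 against 9830 to 13700 TPM). The median multiciliated-cell regulator target went the other way from the sum of that list. Of 46 tested, edgeR called 12 lower and 2 higher with dnE2f4, with a median log2 fold change of -0.36. Whether injected mRNA entered this sum, such as that read in the e2f4 target (3520 to 6630 CPM with dnE2f4), was not tested. The higher sum thus cannot be credited to the embryo's own genes. Lower with dnE2f4, without overlap, were the sums of the centriole (9240 to 10100 against 5270 to 5310 TPM) and axoneme lists (65900 to 74100 against 49700 to 60200 TPM). The sum of the IFT, BBSome and transition-zone list was lower too (8120 to 9140 against 6580 to 7020 TPM). The sums of the goblet, ionocyte, neural crest, mesoderm and endoderm lists overlapped between the groups. The part of these differences in the values of the members was not tested.

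**Figure D4:**
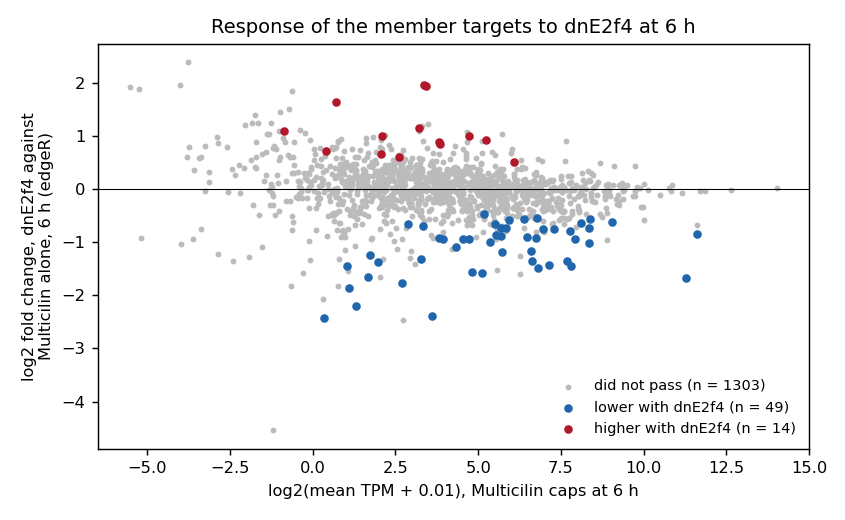
Log2 fold change with dnE2f4 at 6 h (edgeR) against RNA level in Multicilin caps (log2 of mean TPM with 0.01 added) for the 1366 member targets tested. The 49 lower (blue) and 14 higher (red) targets are spread over the range of levels, and most of the 1303 others lie near 0.

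The members lower with dnE2f4 had log2 fold changes from -0.47 to -2.42, 22 of them of at least 2-fold. Named falls and rises are ordered by the known role of the gene, and these roles were not tested as groups. Values below are TMM-scaled CPM in replicates 1, 2 and 3 and adjusted p-values from edgeR over all targets. The Multicilin and dnE2f4 libraries of each named gene did not overlap, which is no separate support for the calls. Many of these genes, such as bmi1, have another target of the same symbol. Values are those of the target with the member peak, and the response of the other target is not given. The share of fragments on the named target alone was 34.3% for nr2f2, 35.1% for efnb2, 38.8% for tln2, 39.0% for ckb and 41.1% for mink1. Lower shares are given with each gene. The Polycomb repressor gene bmi1 read 5.23, 10.5 and 9.98 CPM in Multicilin caps and 1.79, 1.54 and 1.52 CPM with dnE2f4, a log2 fold change of -2.39 (SE 0.31, adjusted p = 0.00197). Its peak lay on scaffold 155082 at bases 1852547 to 1852757, with its centre 176 bases downstream of the start and 13674 bases from the nearest peak without Multicilin. The gene yaf2, whose product also joins Polycomb complexes, read 9.5, 13.5 and 10.7 CPM against 4.1, 3.79 and 3.26 CPM, a log2 fold change of -1.59 (SE 0.18, adjusted p = 0.00123). The peak at yaf2 was 256 bases from a peak without Multicilin, and 6.9% of its fragments fell on that copy alone, so the level of the copy is uncertain.

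Next come genes for receptors and signalling. The somatostatin receptor gene sstr5 read 121, 217 and 192 CPM in Multicilin caps and 55.7, 78.4 and 55.4 CPM with dnE2f4, a log2 fold change of -1.48 (SE 0.26, adjusted p = 0.00926). Its peak, on scaffold 10188 at bases 801917 to 802127, covered the start. The kinase gene mink1 read 20.3, 27.4 and 29.8 CPM against 7.97, 7.63 and 7.06 CPM, a log2 fold change of -1.77 (SE 0.20, adjusted p = 0.000847). The relaxin receptor gene rxfp1 read 3.18, 5.59 and 3.96 CPM against 1.69, 1.62 and 1.63 CPM, a log2 fold change of -1.37 (SE 0.27, adjusted p = 0.0165). The orphan nuclear receptor gene nr2f2 had the largest fall, at the lowest level among the named falls. It went from 1.31, 1.59 and 1.59 CPM to 0.488, 0.188 and 0 CPM, a log2 fold change of -2.42 (SE 0.57, adjusted p = 0.0385). The calls of bmi1, yaf2, sstr5 and mink1 were kept in every fit that left out 1 library, while that of rxfp1 was lost in 4 of the 6 and that of nr2f2 in 5. The call of nr2f2 was also lost with uniquely assigned counts (log2 fold change -1.97, adjusted p = 0.113, edgeR) and in the 6 h groups alone (adjusted p = 0.095).

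A coiled-coil gene, a caveolar gene and a metabolic gene follow. The coiled-coil gene ccdc171 read 300, 339 and 396 CPM in Multicilin caps and 121, 133 and 133 CPM with dnE2f4, a log2 fold change of -1.42 (SE 0.18, adjusted p = 0.00168). Its peak, on scaffold 90041 at bases 3215046 to 3215256, ended 6 bases short of the start and was 792679 bases from any peak without Multicilin. The highly expressed cav1 read 615, 869 and 994 CPM against 303, 194 and 280 CPM, a log2 fold change of -1.67 (SE 0.33, adjusted p = 0.0164). The creatine kinase gene ckb read 131, 186 and 223 CPM against 74.6, 57.3 and 65.3 CPM, a log2 fold change of -1.45 (SE 0.25, adjusted p = 0.00845). The call of ccdc171 was kept in every fit that left out 1 library, that of cav1 was lost in 3 of the 6 and that of ckb in 1.

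The rest of the 15 named falls are given by fold change. The talin gene tln2, for a protein that links integrins to actin, had a log2 fold change of -1.85 (SE 0.31, adjusted p = 0.00819, edgeR) and c19orf26 one of -2.19 (SE 0.32, adjusted p = 0.00335). The value of ebpl, named for its likeness to a sterol isomerase, was -1.56 (SE 0.21, adjusted p = 0.00203), and 20.8% of its fragments fell on that target alone. The peak at ebpl was 177 bases from a peak without Multicilin. All 3 calls were kept in every fit that left out 1 library. The ankyrin-repeat gene ankrd63 fell by 1.65, the zinc-finger gene zmat3 by 1.45 and c9orf135 by 1.35 on the log2 scale (adjusted p from 0.0216 to 0.0473), and these calls were lost in 4 or 5 of the 6 fits. With library size alone, or in the 6 h groups alone, ankrd63 and zmat3 did not pass.

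The 14 members higher with dnE2f4 rose by 0.51 to 1.96 on the log2 scale, 6 of them by at least 2-fold. The ephrin ligand gene efnb2 read 12.3, 29.6 and 19.7 CPM in Multicilin caps and 47.8, 87.8 and 104 CPM with dnE2f4, a log2 fold change of 1.95 (SE 0.32, adjusted p = 0.00621). The platelet-derived growth factor gene pdgfa read 4.61, 18.4 and 9.45 CPM against 22.5, 53 and 51.7 CPM, a log2 fold change of 1.96 (SE 0.44, adjusted p = 0.0319). The Notch ligand gene dll1 read 2.22, 2.89 and 3.13 CPM against 6.18, 7.1 and 13 CPM, a log2 fold change of 1.64 (SE 0.35, adjusted p = 0.0246). The peak at dll1 was 869 bases upstream of the start, and 9.86% of its fragments fell on that copy alone.

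The fibroblast growth factor receptor gene fgfr2 read 30, 31.1 and 33.8 CPM in Multicilin caps and 55.4, 53.6 and 63 CPM with dnE2f4, a log2 fold change of 0.86 (SE 0.14, adjusted p = 0.00673). Its relative fgfr4 had a log2 fold change of 0.99 (SE 0.22, adjusted p = 0.0314). In BMP signalling, smad1, which carries the signal to the nucleus, had a log2 fold change of 0.90 (SE 0.17, adjusted p = 0.0132) and tll1, for a protease of the tolloid family that cleaves a BMP inhibitor, one of 1.01 (SE 0.17, adjusted p = 0.00896). The MAP kinase phosphatase gene dusp1 had a log2 fold change of 0.93 (SE 0.16, adjusted p = 0.00896), and its peak was 21 bases from a peak without Multicilin. The peaks at smad1 and tll1 were 248 and 382 bases from one. The protocadherin gene pcdh7 rose by 1.15 (SE 0.27, adjusted p = 0.0419) and adrbk2, for a kinase that acts on receptors, by 1.09 (SE 0.22, adjusted p = 0.0176). The level of adrbk2 in Multicilin caps, 0.542 TPM, was the lowest of the members called at 6 h. Of these 10 rises, efnb2, fgfr2, tll1 and dusp1 kept the call in every fit that left out 1 library, and the other 6 lost it in 2 to 5 of the 6 fits. In the 6 h groups alone, pdgfa, pcdh7, adrbk2 and fgfr4 did not pass, and adrbk2 did not pass with uniquely assigned counts (adjusted p = 0.229). Fragments that fell on the named copy alone made up 12.7% for adrbk2, 18.5% for fgfr4, 29.8% for pcdh7 and 30.7% for tll1. The levels of those copies are thus uncertain. The peaks at 6 of these 10, efnb2, dll1, pcdh7, fgfr4, smad1 and fgfr2, lay 525 to 869 bases from the start. Over all calls at 6 h, 7 of the 14 higher and 7 of the 49 lower member targets had their nearest member peak more than 500 bases away, against 183 (13.4%) of the 1366 tested. This split was made after the values were seen and was not tested.

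**Figure D5:**
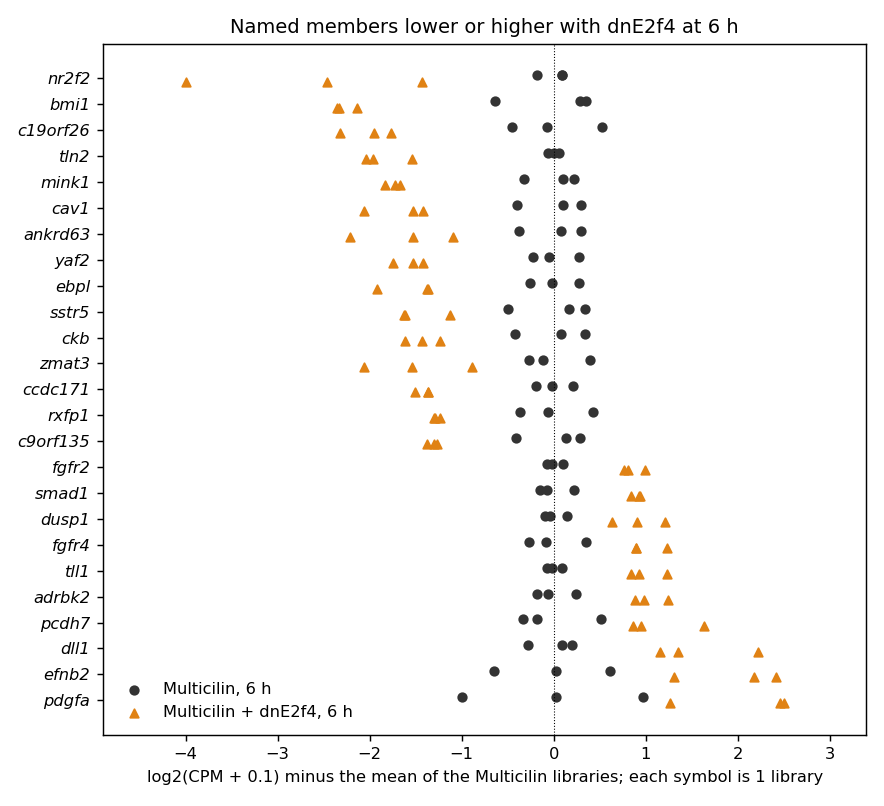
TMM-scaled expression of the 25 named members in each library at 6 h, as log2(CPM + 0.1) minus the mean of the 3 Multicilin libraries. Circles are Multicilin libraries and triangles dnE2f4 libraries, and for none of the 25 genes do the groups overlap. The 25 were chosen by calls from these same libraries, so the lack of overlap is no separate support.

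The centriole and cilium members had lower mean levels with dnE2f4, and 2 of the 17 passed the test, as did 3.44% of all targets. The dynein assembly genes dnaaf1 and dnaaf2 fell. The gene dnaaf1 read 412, 404 and 435 CPM in Multicilin caps and 286, 277 and 279 CPM with dnE2f4, a log2 fold change of -0.57 (SE 0.13, adjusted p = 0.0302, edgeR). The gene dnaaf2 read 579, 465 and 541 CPM against 365, 275 and 314 CPM, a log2 fold change of -0.73 (SE 0.15, adjusted p = 0.0179). The peak at dnaaf1, on scaffold 62355 at bases 660877 to 661087, was centred on the start and 69889 bases from any peak without Multicilin, while that at dnaaf2 had one 23 bases away. The call of dnaaf1 was lost in every fit that left out 1 of the 6 libraries and with library size alone, and that of dnaaf2 in 4 of the 6 fits and in the 6 h groups alone (adjusted p = 0.0554).

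The other 15 had log2 fold changes from -0.22 to -0.68 that did not pass. Both centriole members, poc5 and cep78, had -0.65 (adjusted p = 0.225 and 0.132, edgeR). The gene poc5 read 208, 236 and 316 CPM in Multicilin caps and 138, 165 and 182 CPM with dnE2f4, and cep78 read 254, 273 and 364 CPM against 138, 200 and 230 CPM, with no overlap between the groups in either. With the replicate block, 13 of the 15 passed, all but wdr16 and tulp3, as did 15.9% of all targets. The adjusted p-values from edgeR with the block were 0.0351 for poc5 and 0.00142 for cep78. Whole-list counts with the block are not given. For the whole lists, members or not, edgeR without the block called 45 of 88 centriole targets, 7 of 88 tested axoneme targets and 7 of 76 tested IFT, BBSome and transition-zone targets lower, and none higher. The summed level of the 91 axoneme targets was 65900 to 74100 TPM in Multicilin caps and 49700 to 60200 TPM with dnE2f4, and its part in the values of single members was not tested.

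At 3 h, 4 member targets (0.293%) were lower with dnE2f4 and none higher, against 0.269% and 0.015% of all targets by edgeR (0.284% in either direction). The 4 genes were also called at 6 h. The gene sstr5 read 6.91, 5.57 and 3.4 CPM in the 3 Multicilin libraries and 0.841 and 1.32 CPM in the 2 dnE2f4 libraries, a log2 fold change of -2.36 (SE 0.39, adjusted p = 0.0332). The gene ccdc171 read 62.4, 59.8 and 40.2 CPM against 14.6 and 18.3 CPM, a log2 fold change of -1.73 (SE 0.21, adjusted p = 0.0108). The values of ebpl and of lrrc71, a leucine-rich repeat gene, were -1.50 (SE 0.24, adjusted p = 0.0317) and -1.02 (SE 0.17, adjusted p = 0.0331). In all 4 the groups did not overlap. Without Multicilin replicate 2, dnE2f4 replicate 2 or dnE2f4 replicate 3, edgeR called 0 members (115, 83 and 125 at an unadjusted p under 0.05), without Multicilin replicate 1 it called 1, and without Multicilin replicate 3 it called 25 (1.83% against 1.01% of all targets). DESeq2 called 42 (4.04% against 3.29% of all targets), and edgeR with the replicate block 61 (4.47% against 3.1%).

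At 9 h, with 2 Multicilin libraries and 1 dnE2f4 library, 16 member targets (1.17%) passed, 13 lower (0.952%) and 3 higher (0.22%), against 1.13% of all targets, 0.918% lower and 0.215% higher. The spread of the single dnE2f4 library was taken from the other groups. Of the 16, 11 were also called at 6 h. The gene yaf2 read 11.6 and 13.8 CPM in Multicilin caps and 2.05 CPM with dnE2f4, a log2 fold change of -2.63 (SE 0.31, adjusted p = 0.00332, edgeR). With uniquely assigned counts this call was lost (log2 fold change -2.47, adjusted p = 0.0565), as was that of plk1 below (-1.58, adjusted p = 0.0561). Of the genes named at 6 h, c19orf26 (-2.61), rxfp1 (-2.20), ckb (-2.13), mink1 (-1.88), ccdc171 (-1.58), fgfr2 (1.31) and tll1 (1.16, adjusted p = 0.0491) were called at 9 h as well, in the direction they had at 6 h. Also called were plk1, a mitotic kinase gene (210 and 353 against 79.5 CPM, log2 fold change -1.82), ahsa1, a co-chaperone gene of Hsp90 (-2.03), and cdc27, for a subunit of the anaphase-promoting complex (-1.30). The peaks at plk1 and ahsa1 were 114 and 22 bases from a peak without Multicilin. Without Multicilin replicate 3, edgeR called 1 member (0.0733% against 0.135% of all targets). DESeq2 called 119 (9.9% against 7.16% of all targets), and edgeR with the replicate block 202 (14.8% against 10.9%). With library size alone, which moved the median of all targets by 0.17 on the log2 scale, 11 members were lower and 14 higher, with 0.654% and 0.464% of all targets.

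Many member targets changed between 3 and 6 h after Multicilin was switched on, as did targets in general. In Multicilin caps 804 (58.9%) of the 1366 tested passed edgeR, against 52.1% of all targets, with 415 higher (30.4% against 25.7%) and 389 lower at 6 h (28.5% against 26.4%). Scaling by library size alone moved the median of all targets by -0.25 on the log2 scale, and then 336 members were higher (24.6% against 19.6%) and 523 lower (38.3% against 35.0%). This comparison shares the Multicilin libraries at 6 h with the dnE2f4 comparison. Time in culture and Multicilin activity cannot be told apart, since every RNA library carried Multicilin.

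The largest rises were found in genes at low level at 3 h. The microtubule-associated protein gene eml6 read 5.35, 7.4 and 5.02 CPM at 3 h, 434, 515 and 437 CPM at 6 h and 1460 and 1400 CPM at 9 h, a log2 fold change from 3 to 6 h of 6.27 (SE 0.21, adjusted p = 4.95e-09, edgeR). The peak at eml6 was 75 bases from a peak without Multicilin, and eml6 was also called lower with dnE2f4 at 6 h (adjusted p = 0.00347, edgeR). An unnamed target on scaffold 43791 went from 0.4, 0.801 and 0.664 CPM to 23.7, 26.9 and 31.9 CPM, a log2 fold change of 5.47 (SE 0.26). The cell-cycle phosphatase gene cdc25a, of the G1/S list, went from 7.31, 5.57 and 3.54 CPM to 205, 156 and 217 CPM, a log2 fold change of 5.11 (SE 0.26), while 5 of the other 6 members of that list fell. The libraries of 3 and 6 h did not overlap in these 3 genes.

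Further rises were found in c8orf34 (log2 fold change 5.43), odf3, for an outer dense fibre protein of sperm tails (5.29), ttll3, for a tubulin-modifying ligase (5.27), cdhr4, of the cadherin family (5.09), and sstr5 (5.03). All 8 passed edgeR with adjusted p-values of 1.45e-05 or lower. Peaks at odf3, ttll3, cdc25a, cdhr4 and sstr5 covered the start, and those at eml6, c8orf34 and the unnamed target did not. A shared peak also stood at the start of c8orf34. The pocket-protein gene rbl2 went from 5.6, 7.94 and 3.17 CPM to 127, 113 and 98.2 CPM, a log2 fold change of 4.30 (SE 0.38, adjusted p = 2.08e-06), and did not pass with dnE2f4 at 6 h.

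All 17 centriole and cilium members rose from 3 to 6 h, also with library size alone. Over all targets, 25.7% rose by edgeR, and 19.6% with library size alone. Counts for the other targets of these lists are not given, so the rise cannot be credited to the member peaks. The tektin gene tekt4 went from 62, 69 and 50.9 CPM to 393, 351 and 459 CPM, a log2 fold change of 2.72 (SE 0.16, adjusted p = 9.49e-08, edgeR). The centriolar gene poc5 went from 23.2, 38.9 and 21 CPM to 208, 236 and 316 CPM, a log2 fold change of 3.19 (SE 0.28, adjusted p = 1.86e-06), and cep78 rose by 1.46 (SE 0.22, adjusted p = 0.000131). Across the 10 axoneme members the median was 1.92, from 1.25 for dnaaf2 to 2.72 for tekt4. Across the 5 IFT, BBSome and transition-zone members the median was 1.30, from 0.75 for tulp3, a carrier of membrane proteins into cilia, to 2.48 for ift172, a subunit of the IFT-B train. Of the 5 goblet and outer-layer members, both copies of grhl1 rose and upk3a fell. Krt8 read 2240, 2870 and 2600 CPM at 3 h and 2390, 2890 and 2560 CPM at 6 h, which overlap.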

How the data were processed

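RNA from 18 animal-cap libraries and E2f4-GFP peaks from 1 pooled ChIP sample per condition were used, and the inputs were not analysed here. The estimated counts (expected counts) were made by the authors with eXpress, which divides fragments that align to several targets among them, per the file headers. The deposited tables also hold uniquely assigned counts (raw counts, not normalized), TPM and FPKM computed by eXpress, per the file headers. Bowtie, Bowtie2, STAR and DESeq are also named, without roles, in the submitters' processing notes. The authors called peaks with HOMER on pooled replicates against input, with at least 4 times the input and local tags and an FDR of 0.001, per the file headers. The deposited score of each peak is a constant and was not used. The RNA kit keeps no strand, per the labels, so reads of a gene and an antisense partner cannot be told apart. Positions are on JGIv7b scaffolds and counted from 1. No genome of that build was used, so no sequence is printed.

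Estimated counts were rounded, filtered with filterByExpr, scaled by TMM and tested with edgeR 4.0.16 in R 4.3.3 (robust quasi-likelihood F test, a mean per group, Benjamini-Hochberg over all targets tested, threshold 0.05), on 14 libraries. Level is the mean TPM of the Multicilin libraries at 6 h, and the unique share is the part of fragments aligned to 1 target. The alternatives were DESeq2 1.42.0, library size alone, no filter, unique counts, FPKM, other libraries, a replicate block, each library left out, and other limits for membership. The members, lists and tests were chosen with earlier results of these data known. Named genes are the 15 falls and 10 rises of largest size at 6 h, up to 10 calls each at 3 and 9 h, the 8 highest levels, list members, 6 with several peaks, the 3 peaks on each side of the 1 kb limit and the 8 largest rises from 3 to 6 h. One list member is not reported here by name.

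Labels number replicates without saying that they are separate clutches, so p-values measure the spread between these libraries. At 6 h, deviations from the group mean correlated at 0.68, 0.424 and 0.463 between libraries of the same number. Between different numbers the range was -0.503 to 0.175. Deviations sum to 0 within a group of 3 libraries, so these correlations depend on one another. Libraries of the same number thus deviated together, which is called pairing here, and the labels do not say what they share. The reported tests have no block and so leave this pairing out, and the block is given beside them as an alternative. At 6 h the reported test called 63 members and the test with the block 305, so the low count belongs to the unpaired test. No 2 libraries of a group were duplicates (lowest chi-square per degree of freedom 13.8). Counts were simulated for the 6 h comparison without pairing and tested without a block, with 200 of 19610 targets changed. The changed targets were drawn from those with a mean over 2 CPM, so recovery at lower levels is not known. Of these changes, 89.6% of 4-fold, 43.3% of 2-fold and 4.55% of 1.5-fold were recovered, with 1 unchanged target called.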

Additional observations from a re-analysis of the deposited data

Results flagged for a closer look

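The Notch target gene hes7 had non-overlapping groups in opposite directions at 3 and 9 h, and the difference itself was not tested. At 3 h it read 0.0364, 0.191 and 0.148 CPM in Multicilin caps and 0.252 and 0.554 CPM with dnE2f4, a log2 fold change of 1.64 that did not pass (adjusted p = 0.93, edgeR). At 9 h it read 0.125 and 1.24 CPM against 0.062 CPM in the single dnE2f4 library, a log2 fold change of -3.36 that did not pass (adjusted p = 0.295). It was among the lowest members in level.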

How the results depend on the processing

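The number of member peaks was 1057 to 1956 under other limits for distance and overlap. The count of members called at 6 h stayed within 1.5 times of 63 under those limits (44 to 89), with library size alone, no filter and unique counts. It was 39 in the 6 h groups alone, of which 36 were among the 63, and 149 with DESeq2, which called all 63. At 3 h DESeq2 called 42 and no filter left 7 in place of 4, and at 9 h DESeq2 called 119 and library size alone 25 in place of 16. With 16 libraries edgeR called 0 at 3, 6 and 9 h (83, 179 and 6 at an unadjusted p under 0.05). Leaving out 1 library gave 20 to 72 calls at 6 h, 0 to 25 at 3 h, 1 to 23 at 9 h and 706 to 752 from 3 to 6 h, where every alternative stayed within 1.5 times of 804. The median log2 fold change at 6 h was -0.03 with DESeq2 and 0.1 with library size alone (all targets 0.00 and 0.12), and from -0.02 to 0.02 with 1 library left out. The median level was 7.62 as FPKM, another unit, and 13.8 to 14.8 TPM with 1 library left out. Of the printed fold changes run under the alternatives, none turned its direction. Those of hes7, and that of tll1 at 9 h, were not included.

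With the replicate block, 61 members passed at 3 h, 305 at 6 h and 202 at 9 h, and 416 in the 6 h groups alone with the block, a fit added after seeing the data. The block gives each number 1 effect across times, and pairing was checked at 6 h alone. The calls printed at 3, 6 and 9 h also passed with the block, but that of tll1 at 9 h was not checked.

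Each condition has 1 pooled peak set, so a peak near its threshold in either set may change class, and the depth gap (15313243 against 24997566 tags) cannot be told apart from Multicilin. In the simulation, which had no pairing and no block, 1.5-fold changes were seldom recovered. It does not show what the test with the block can detect. With the block, smaller changes passed at 6 h, such as that of zmynd10 (log2 fold change -0.35, adjusted p = 0.0179, edgeR).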
